A study of Mus musculus with 8 samples.

Results

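The type I interferon response genes are the transcripts that a cell switches on when interferon-α or interferon-β binds it. 36 genes were chosen by name, and 34 of them were among the 22597 genes of the deposited table. Mx1 and Mx2, antiviral GTPases, were not analysed here. The choice used no measured value, but it was made with earlier results of these data known. In libraries of cells sorted as lung macrophages, most of the 34 genes lay somewhat higher where the TGF-β receptor gene Tgfbr2 had been targeted. This held separately in 2 sets of libraries that differed greatly in their content of lung tissue RNA. Which cells carried the difference was not tested. Over all 8 libraries together only Rtp4 passed the test.

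Interferon-α and -β bind a receptor made of the Ifnar1 and Ifnar2 chains, and the kinases Jak1 and Tyk2 then phosphorylate STAT proteins. STAT2 and IRF9 are subunits of the complex that binds a DNA element called the ISRE, built of repeated GAAA, and induces many genes. Among the products are sensors of viral RNA and DNA, enzymes that degrade RNA, proteins that block viral translation or exit, and factors such as IRF7 and USP18 that amplify or end the signal. Tissue macrophages express many of these genes at a low level without infection.

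The libraries hold polyadenylated RNA of cells sorted from female C57BL/6 mouse lung as interstitial macrophages, which lie in the tissue outside the air spaces. The recipients, given as 18 weeks old in the protocol and as 12 to 16 weeks old in the sample labels, carried CD45.1 and CD45.2 and a diphtheria toxin receptor under Cx3cr1 that allows their own interstitial macrophages to be deleted. They were irradiated with the thorax shielded and given marrow of Tgfbr2fl/fl donors (labelled WT) or of Lyz2Cre Tgfbr2fl/fl donors (labelled TgfBetar2 KO, here Tgfbr2_KO or KO). All recipients received 50 ng of diphtheria toxin after 1 month, and cells were taken 10 days later, so both groups share irradiation, transplantation and toxin. Each group had 4 libraries, with totals of 15597310 to 37654133 counts. Lyz2 drives Cre in myeloid cells as a class, the controls carried no Cre, and receptor loss and the presence of Cre cannot be told apart. The labels do not say which host cells remained in the lung or whether the libraries are separate mice. The p-values therefore measure only how these libraries vary, and that variation may be technical.

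WT 1, WT 2 and KO 1, called lung-rich here, differed from the other 5 libraries in lung RNA. In these 3 the summed level of 18 epithelial markers was 3790 to 6772 CPM (the edgeR cpm scale, with TMM-adjusted library sizes). It was 244 to 382 CPM in the others. The summed level of 18 endothelial markers was 3505 to 6853 CPM in these 3 against 457 to 489 in the others. KO 1 was the highest in both. The 12 macrophage markers, such as C1qa and Csf1r, were all above 1 CPM in every library. They summed to 15726 and 17190 CPM in WT 1 and WT 2 and to 10684 in KO 1. In the other libraries the sum was 25478 and 26056 CPM in WT 3 and WT 4 and 23674 to 23961 in KO 2 to 4. KO thus lay below WT without overlap in both sets. The sets were defined from the data, are not groups of the study, and each holds both genotypes. Tgfbr2, counted over the whole gene, was at 548, 474, 546 and 542 in WT 1 to 4 and 424, 576, 529 and 539 in KO 1 to 4 and did not pass (log2 fold change -0.03, SE 0.12, edgeR adjusted p = 1.00). Such a level does not show the loss that the KO label names, nor whether part of the gene was deleted. Lyz2, which carries Cre in the KO donors, was at 7285, 8262, 12935 and 13193 in WT 1 to 4 and 3439.9, 5611, 5448 and 5538 in KO 1 to 4, lower in each KO library than in every WT library. Of the pairs within a genotype WT 3 and WT 4 lay closest together, and a fit with their counts summed is given below. In such bulk samples, fewer cells of a type and less RNA per cell cannot be told apart.

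A promoter entry in RefSeq (GRCm38.p6, 250 bases before to 50 bases after an annotated start) was found for 26 of the 34 genes, and none for Oas2, Usp18, Dhx58, Zbp1, Ifi27l2a, Rtp4, Ifi204 and Parp14. The ISRE core was searched on both strands as GAAA followed, after any 2 bases, by another GAAA, and matches may overlap each other. At least 1 match was present in 16 of the 26 genes (61.5%), against 3.99% of the 10055 tested genes with an entry and 3.44% of all 32851 promoters. The element TTCNNNGAA, a core bound by STAT dimers, was in 4 of the 26 (15.4%) and in 8.17% of the tested genes. The 250 bases upstream of the start are shown for 6 genes that carry the core, because they show it in 1 copy (Ifi213, Rsad2), in separate copies (Ifit1), in overlapping copies (Isg15) and in a pair of near-identical promoters (Ifit3, Ifit3b). Capitals mark the matches, which read as TTTC repeats where the core lies on the other strand.
Isg15: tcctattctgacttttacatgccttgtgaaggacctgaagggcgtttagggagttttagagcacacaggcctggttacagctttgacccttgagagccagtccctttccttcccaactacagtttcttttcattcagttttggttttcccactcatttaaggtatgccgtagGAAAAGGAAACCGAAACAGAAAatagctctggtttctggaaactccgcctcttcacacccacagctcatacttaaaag
Ifit1: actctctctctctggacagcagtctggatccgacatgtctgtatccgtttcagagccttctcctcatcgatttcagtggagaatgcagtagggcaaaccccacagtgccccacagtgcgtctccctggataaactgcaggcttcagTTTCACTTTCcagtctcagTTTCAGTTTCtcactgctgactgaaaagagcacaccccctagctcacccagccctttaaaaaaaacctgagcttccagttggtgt
Ifit3: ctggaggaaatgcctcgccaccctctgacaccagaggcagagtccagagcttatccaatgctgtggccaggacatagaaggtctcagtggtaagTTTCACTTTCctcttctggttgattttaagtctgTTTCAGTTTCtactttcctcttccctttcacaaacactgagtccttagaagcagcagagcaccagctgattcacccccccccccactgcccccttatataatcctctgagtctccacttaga
Ifit3b: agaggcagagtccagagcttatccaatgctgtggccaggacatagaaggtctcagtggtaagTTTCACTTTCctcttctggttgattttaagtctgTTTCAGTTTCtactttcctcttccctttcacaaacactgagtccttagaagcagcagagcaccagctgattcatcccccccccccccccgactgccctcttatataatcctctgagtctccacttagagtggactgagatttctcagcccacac
Ifi213: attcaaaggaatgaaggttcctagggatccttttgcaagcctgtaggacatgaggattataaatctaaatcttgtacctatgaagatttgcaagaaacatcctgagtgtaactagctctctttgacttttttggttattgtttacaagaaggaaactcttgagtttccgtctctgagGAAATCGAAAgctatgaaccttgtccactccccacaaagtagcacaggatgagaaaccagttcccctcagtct
Rsad2: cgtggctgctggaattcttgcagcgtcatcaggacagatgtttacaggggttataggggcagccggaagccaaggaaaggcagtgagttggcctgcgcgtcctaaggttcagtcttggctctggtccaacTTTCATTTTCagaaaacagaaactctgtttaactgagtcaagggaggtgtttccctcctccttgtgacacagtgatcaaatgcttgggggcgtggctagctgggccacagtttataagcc
They lie at chr4:156200819-156201068, minus strand (Isg15), chr19:34640639-34640888, plus strand (Ifit1), chr19:34583279-34583528, plus strand (Ifit3), chr19:34607707-34607956, plus strand (Ifit3b), chr1:173599273-173599522, minus strand (Ifi213) and chr12:26456453-26456702, minus strand (Rsad2). Isg15 has 3 overlapping matches beginning 78, 72 and 66 bases before the start. In Ifit1 the matches begin 104 and 85 bases before the start, and Ifi213 has 1 match at 73 bases. The Ifit3 and Ifit3b upstream regions share an identical run of 169 bases that holds both of their matches. A match describes these letters only. The median log2 fold change with the library set as a term, introduced below, was 0.38 for the 16 genes with a match and 0.43 for the 10 without one.

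Over all 8 libraries, Rtp4 rose in Tgfbr2_KO, and none of the 34 genes fell (edgeR quasi-likelihood test, Benjamini-Hochberg adjusted p under 0.05 over 12750 genes). This is 1 of 34, against 0.196% of all genes called higher and 0.102% called lower. At an unadjusted p under 0.05 (edgeR), 14 of the 34 were higher and 0 lower. Of all 12750 genes, 838 were higher at that level and 1328 passed it in either direction. DESeq2 called 7 higher and 0 lower (Rtp4, Parp14, Oas2, Stat2, Ddx58, Ifi213 and Slfn5), against 2.72% of all genes called higher and 1.41% lower. With RLE scaling edgeR called 1 higher (against 0.173%) and 0 lower (against 0.0941%). The estimate was above 0 for all 34 genes, with a median log2 fold change of 0.45 and a range of 0.10 (Bst2) to 1.29 (Oas2), while the median over all genes was -0.0083. Rtp4 lost its call without WT 1, 2, 3 or 4 or KO 2, 3 or 4, each left out alone, and its edgeR adjusted p reached 0.197 among all alternatives. Without KO 1, 6 of the 34 genes rose and 0 fell, against 619 higher and 241 lower of all 12767 genes tested. The 6 were Rtp4, Parp14, Oas2, Stat2, Ddx58 and Slfn8.

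Compared within the sets, the genotypes separated for most of these genes. Over all libraries every KO lay above every WT library in 11 of 34 genes (against 4.19% of all genes) and below in 0 (against 2.71%). KO 2, KO 3 and KO 4 all lay above WT 3 and WT 4 in 27 of 34 genes (79.4%), against 29% of all genes, and KO 1 lay above WT 1 and WT 2 in 33 of 34 (97.1%), against 46.4%. The 26 genes that did both (76.5%, against 14.8% of all genes) were Cmpk2, Ddx58, Dhx58, Ifi204, Ifi211, Ifi213, Ifi27l2a, Ifit1, Ifit2, Ifit3, Irf7, Irf9, Isg20, Oas1a, Oas1g, Oas2, Oas3, Oasl1, Oasl2, Parp14, Rsad2, Rtp4, Slfn5, Stat2, Usp18 and Xaf1. No gene lay lower in both sets, against 13.6% of all genes. The log2 fold change was above 0 in both sets for 31 genes, which adds Ifi209, Ifih1, Ifit3b, Isg15 and Zbp1 to the 26. The background for this was 25.6% of all genes. Bst2 and Ifi44 were below 0 in the 5 other libraries, where all KO lay below both WT libraries (against 30.2% of all genes). Slfn8 was above 0 there and below 0 in the lung-rich libraries (against 24% of all genes), and by levels it lay above WT without overlap in the first and below in the second (against 8.36%). KO 1 lay below WT 1 and WT 2 for Slfn8 alone, against 32.8%. The ratio of KO 1 to the mean of WT 1 and WT 2 ran from 0.746 to 2.54 (median 1.61), and the ratio of the means of KO 2 to 4 and WT 3 and 4 from 0.738 to 2.28 (median 1.27). The medians of the same ratios over all genes were 1.03 and 0.997.

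**Figure D1:**
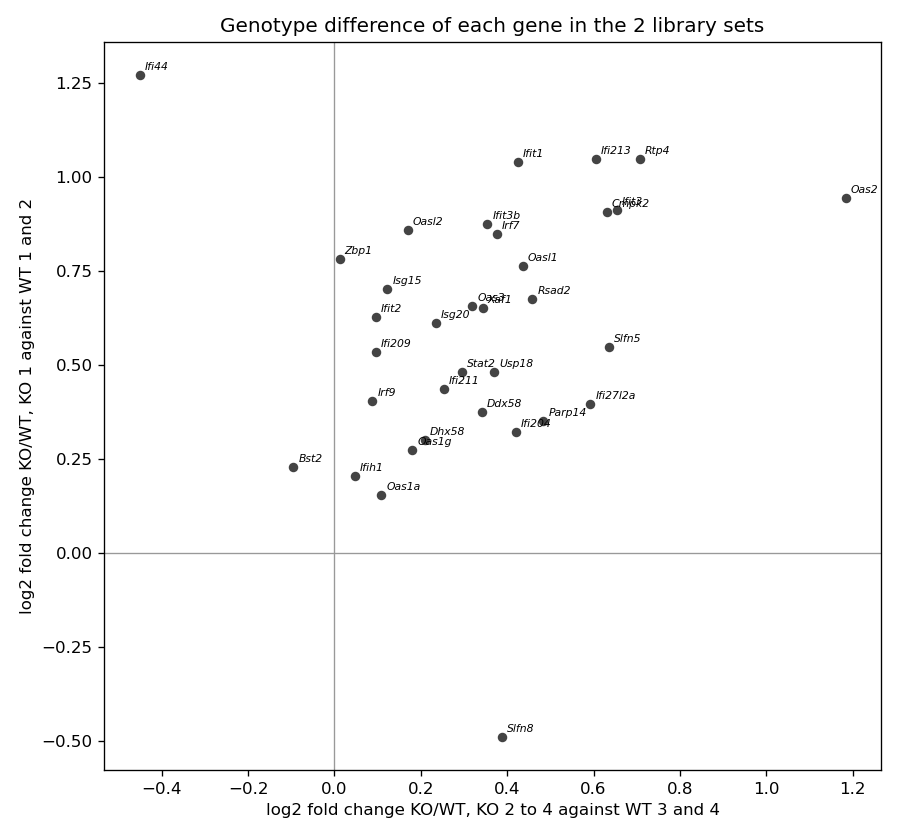
Each point is 1 of 34 genes, with the log2 fold change of KO over WT in the 5 other libraries on the horizontal axis and in the lung-rich libraries (1 KO library) on the vertical axis. 31 points lie above 0 on both axes, with Oas2 farthest to the right, while Ifi44 and Bst2 lie left of 0 and Slfn8 lies below 0.

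With the library set as a term in the fit, which estimates 1 genotype difference within both sets, 19 of 34 genes rose in Tgfbr2_KO (55.9%, against 8.59% of all genes), 0 fell (against 7.89%) and 15 did not pass (edgeR). At an unadjusted p under 0.05 (edgeR), 27 were higher and 0 lower. Of all 12750 genes, 2178 were higher at that level and 3908 passed it in either direction. The median log2 fold change was 0.42, against 0.027 over all genes. Among the 5 other libraries alone 20 rose, against 19.7% of all genes, and 0 fell, against 18.7% (edgeR, with 1 lower at an unadjusted p under 0.05). When the counts of WT 3 and WT 4 were added together and KO 4 was dropped, 4 of the 34 rose with the set as a term, Oas2 (edgeR adjusted p = 0.0291), Rtp4 (0.0346), Cmpk2 (0.0393) and Slfn5 (0.0396), against 0.519% of all genes higher and 0.853% lower. In that fit 25 were higher at an unadjusted p under 0.05 (edgeR), against 1237 of all 13479 genes. The adding and the dropping were done together, and the part of each in the lower count was not tested. The genes are described below by role, with CPM in WT 1 to 4 and KO 1 to 4 and with log2 fold changes and edgeR adjusted p-values from the fit with the set as a term unless another is named.

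**Figure D2:**
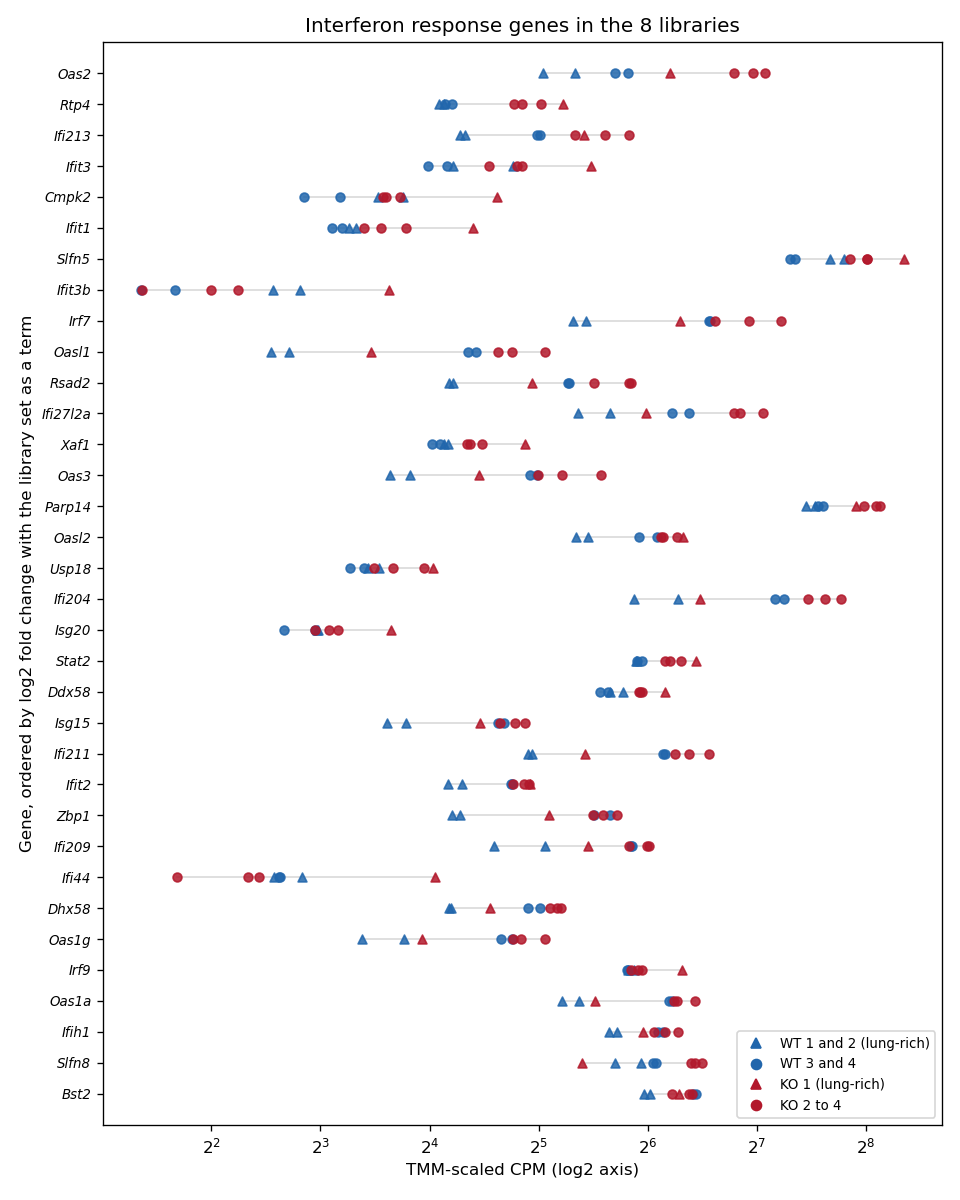
TMM-scaled CPM on a log2 axis for 34 genes in 8 libraries, with WT in blue, KO in red and the lung-rich libraries as triangles. Within triangles and within circles the red points lie to the right of the blue ones in 26 genes, while in genes such as Oasl1 and Irf7 the lung-rich libraries of both genotypes lie far to the left.

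Oas2 had the largest difference of the 2',5'-oligoadenylate synthetases, enzymes that sense double-stranded RNA and make the activator of RNase L. Oas2 (ENSMUSG00000032690, chromosome 5, 120730333 to 120749853, minus strand, GRCm38) was at 32.95, 40.3, 51.9 and 56.3 CPM in the WT libraries 1 to 4 and 73.9, 111, 135 and 125 CPM in the KO libraries 1 to 4. All KO libraries lay above all WT libraries, and within both genotypes the lung-rich libraries were the lowest. Its log2 fold change was 1.13 (SE 0.09, edgeR adjusted p = 3.38e-04), with 1.18 in the other set and 0.94 in the lung-rich set, and 1.29 over all libraries without the set term (edgeR adjusted p = 0.0935). Oasl1, a synthetase-like protein without that enzyme activity, was at 5.86, 6.54, 21.4 and 20.4 CPM in the WT libraries 1 to 4 and 11.04, 24.7, 33.2 and 26.9 CPM in the KO libraries 1 to 4. WT 1 and WT 2 held the lowest values, and KO 1 lay below WT 3 and WT 4, so the genotypes overlapped unless compared within the sets (log2 fold change 0.56, SE 0.12, edgeR adjusted p = 0.017). The other 4 synthetase genes did not pass with the set term. Oas3, the longest of the synthetases, had a log2 fold change of 0.46 (95% interval 0.14 to 0.78, edgeR adjusted p = 0.0592) and Oasl2 0.45 (0.11 to 0.78, edgeR adjusted p = 0.0696). Oas1a and Oas1g had 0.15 (0.0034 to 0.29) and 0.24 (-0.0029 to 0.47). In CPM, Oas1a was at 37.1 to 74.5 in WT and 45.9 to 86.7 in KO, Oas1g at 10.4 to 27.1 in WT and 15.2 to 33.4 in KO, Oas3 at 12.4 to 31.7 in WT and 21.9 to 47.6 in KO and Oasl2 at 40.6 to 67.9 in WT and 69.5 to 80.2 in KO. Of these only Oasl2 had all KO above all WT libraries. Oas1a, Oas1g, Oas2 and Oas3 lie within 177.2 kb on chromosome 5, and their log2 fold changes ran from 0.15 to 1.13.

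Of the 31-base words of the Oas1a transcripts in GENCODE M21, 68.7% also occur in Oas1g transcripts, and 54.6% of those of Oas1g occur in Oas1a. Salmon assigns reads by such matches, so the split of counts between these copies is uncertain. No word of Oas2 is shared with another gene.

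The Ifit genes encode proteins that bind foreign RNA 5' ends or assist such binding and block translation. All 4 lie within 99.3 kb on chromosome 19. Ifit3 was at 27.1, 18.6, 15.8 and 17.9 CPM in the WT libraries 1 to 4 and 44.8, 23.4, 28.9 and 27.9 CPM in the KO libraries 1 to 4 and rose (log2 fold change 0.78, SE 0.14, edgeR adjusted p = 0.00861). Ifit1 was at 10.00, 9.57, 8.62 and 9.20 CPM in the WT libraries 1 to 4 and 21.03, 10.5, 13.8 and 11.8 CPM in the KO libraries 1 to 4, with every KO library above every WT library (0.68, SE 0.15, edgeR adjusted p = 0.0174). KO 1 was the highest library for both genes. Ifit2, which can promote cell death, was at 19.6, 17.96, 26.9 and 27.03 CPM in the WT libraries 1 to 4 and 30.3, 27.2, 30.1 and 29.1 CPM in the KO libraries 1 to 4, and it did not pass (0.31, edgeR adjusted p = 0.105). WT 3 (26.9), WT 4 (27.0) and KO 2 (27.2) were almost equal in Ifit2. Ifit3b, a copy of Ifit3, was at 2.56 to 7.04 CPM in WT and 2.58 to 12.4 CPM in KO, with the lung-rich library highest in each genotype and a log2 fold change that did not pass (0.60, edgeR adjusted p = 0.0947). Ifit3 and Ifit3b share 61.8% of the words of Ifit3, so their separate values are uncertain.

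Among the regulators, Stat2, Irf7 and Usp18 rose with the set term and Irf9 did not pass. Stat2, a subunit of the ISRE-binding complex, was at 59.8, 59.3, 59.9 and 61.7 CPM in the WT libraries 1 to 4 and 86.95, 71.4, 79.1 and 73.7 CPM in the KO libraries 1 to 4. The WT libraries lay within a narrow range in both sets, and each KO library lay above all of them (0.39, SE 0.06, edgeR adjusted p = 0.00551). Irf7, the factor that amplifies interferon production, was at 39.9, 43.3, 94.99 and 94.6 CPM in the WT libraries 1 to 4 and 78.6, 98.1, 149.6 and 122 CPM in the KO libraries 1 to 4. The mean of WT 1 and WT 2 was 0.439 of that of WT 3 and WT 4, and KO exceeded WT 1.89-fold in the lung-rich set and 1.30-fold in the other (0.57, SE 0.15, edgeR adjusted p = 0.0392), and in the 5 other libraries alone Irf7 did not pass (log2 fold change 0.38, edgeR adjusted p = 0.306). Usp18, the protease that removes ISG15 and shuts off the receptor, was at 10.8, 11.6, 9.64 and 10.5 CPM in the WT libraries 1 to 4 and 16.4, 11.2, 15.4 and 12.7 CPM in the KO libraries 1 to 4 (0.44, SE 0.11, edgeR adjusted p = 0.0331). KO 2 (11.2) lay below WT 2 (11.6), so the genotypes overlapped by 1 library. Irf9, the DNA-binding partner of STAT2, was at 56.4, 58.7, 56.4 and 56.2 CPM in the WT libraries 1 to 4 and 79.7, 57.5, 60.2 and 61.6 CPM in the KO libraries 1 to 4. It was at 56.2 to 58.7 CPM in WT and at 57.5 to 61.6 CPM in KO 2 to 4, so KO 1 stood apart (0.23, edgeR adjusted p = 0.08).

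Of the RNA sensors, Ddx58, which encodes RIG-I, and Dhx58, which encodes its relative LGP2, rose with the set term, and Ifih1, which encodes MDA5, did not pass. Ddx58 was at 54.8, 50.3, 49.6 and 47.1 CPM in the WT libraries 1 to 4 and 71.2, 60.5, 61.7 and 61.04 CPM in the KO libraries 1 to 4, and the genotypes did not overlap (0.37, SE 0.05, edgeR adjusted p = 0.00229). Dhx58 was at 18.3, 18.1, 32.3 and 29.9 CPM in the WT libraries 1 to 4 and 23.5, 36.1, 34.5 and 36.8 CPM in the KO libraries 1 to 4 (0.26, SE 0.06, edgeR adjusted p = 0.0212). Ifih1 was at 50.1 to 70.4 CPM in WT and 62.0 to 77.4 CPM in KO, a log2 fold change of 0.13 (95% interval -0.03 to 0.28). Zbp1, a sensor of Z-form nucleic acid that can start necroptosis, was at 18.5, 19.4, 45.6 and 50.5 CPM in the WT libraries 1 to 4 and 34.1, 45.3, 52.6 and 48.1 CPM in the KO libraries 1 to 4. Its difference was 0.78 in the lung-rich set and 0.01 in the other set, and it did not pass (edgeR adjusted p = 0.221).

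The Ifi200 genes encode DNA-binding proteins with a pyrin or HIN domain, and the 4 examined lie within 346.8 kb on chromosome 1. Ifi213, Ifi204 and Ifi211 rose with the set term and Ifi209 did not pass. Ifi213 was at 20.1, 19.4, 32.3 and 31.7 CPM in the WT libraries 1 to 4 and 42.6, 40.3, 56.9 and 48.8 CPM in the KO libraries 1 to 4, with all KO above all WT libraries (0.79, SE 0.13, edgeR adjusted p = 0.00752). Ifi204, the family member most studied as a DNA sensor in macrophages, was at 58.9, 77.4, 143 and 152 CPM in the WT libraries 1 to 4 and 89.3, 177, 218 and 198 CPM in the KO libraries 1 to 4 (0.41, SE 0.10, edgeR adjusted p = 0.0245). Its lung-rich libraries held 0.462 (WT) and 0.452 (KO) of the mean level of the other libraries of the same genotype, against ratios of KO to WT of 1.31 and 1.34 within the sets. Ifi211 was at 29.9, 30.6, 70.3 and 71.2 CPM in the WT libraries 1 to 4 and 42.9, 75.99, 94.2 and 83.2 CPM in the KO libraries 1 to 4 (0.34, SE 0.08, edgeR adjusted p = 0.0224), and Ifi209 at 24.1 to 57.8 CPM in WT and 43.8 to 64.6 CPM in KO (0.28, edgeR adjusted p = 0.197). The share of 31-base words also found in other genes was 78.9% for Ifi211, 47.2% for Ifi209, 34.0% for Ifi204 and 26.5% for Ifi213, so the values of single genes of this cluster are uncertain.

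Rtp4, Parp14 and Slfn5 were effector genes whose genotypes did not overlap over all 8 libraries. Rtp4 (ENSMUSG00000033355, chromosome 16, 23520291 to 23614222, plus strand), a chaperone-like protein induced by interferon, was at 17.6, 16.9, 17.7 and 18.4 CPM in the WT libraries 1 to 4 and 37.3, 27.3, 32.5 and 28.8 CPM in the KO libraries 1 to 4. The lowest KO library, KO 2, lay well above the highest WT library, WT 4 (all libraries: log2 fold change 0.83, SE 0.10, edgeR adjusted p = 0.035). Of the 31-base words of Rtp4, 12.5% are shared with Gm45338, which overlaps it on the same strand. Gm45338 was not among the genes analysed here, and its part in the Rtp4 counts was not tested. Parp14, an ADP-ribosyltransferase, was at 175, 186, 195 and 189 CPM in the WT libraries 1 to 4 and 240.2, 252, 279.6 and 272 CPM in the KO libraries 1 to 4 (0.46, SE 0.05, edgeR adjusted p = 0.00135), and over all libraries edgeR adjusted p was 0.0606. Slfn5, a Schlafen protein that acts in the nucleus, was at 222, 204, 163 and 158 CPM in the WT libraries 1 to 4 and 326, 232, 257 and 257 CPM in the KO libraries 1 to 4 (0.63, SE 0.06, edgeR adjusted p = 5.30e-04). Its lung-rich libraries were the highest in each genotype, and the genotypes did not overlap.

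Cmpk2 and Rsad2 lie within 37.1 kb on chromosome 12 and differed in opposite directions between the library sets. Rsad2 encodes viperin, which makes a chain-terminating nucleotide from CTP, and Cmpk2 encodes the kinase that supplies CTP. Cmpk2 was at 13.6, 11.5, 9.08 and 7.23 CPM in the WT libraries 1 to 4 and 24.5, 12.1, 13.3 and 11.9 CPM in the KO libraries 1 to 4 (0.76, SE 0.12, edgeR adjusted p = 0.00453), and Rsad2 at 18.1, 18.6, 38.7 and 38.8 CPM in the WT libraries 1 to 4 and 30.7, 45.5, 57.5 and 56.97 CPM in the KO libraries 1 to 4 (0.56, SE 0.09, edgeR adjusted p = 0.00651). Lung-rich libraries were the highest of each genotype in Cmpk2 and the lowest in Rsad2, while KO lay above WT in both sets for both genes. The log2 difference of the lung-rich set from the others was 0.79 for Cmpk2 and -0.95 for Rsad2 (edgeR adjusted p = 4.87e-04 and 6.19e-05).

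Ifi27l2a and Xaf1 rose with the set term, and Isg15 and Isg20 did not pass. Ifi27l2a, a small protein of the ISG12 family, was at 40.99, 50.5, 74.9 and 83.2 CPM in the WT libraries 1 to 4 and 63.2, 110.4, 133 and 115 CPM in the KO libraries 1 to 4 (0.55, SE 0.09, edgeR adjusted p = 0.00613). Xaf1, which can favour apoptosis, was at 17.5, 18.1, 16.2 and 17.1 CPM in the WT libraries 1 to 4 and 29.3, 20.8, 22.3 and 20.4 CPM in the KO libraries 1 to 4, and the genotypes did not overlap (0.48, SE 0.09, edgeR adjusted p = 0.0087). Isg15, the ubiquitin-like modifier, was at 13.8, 12.2, 25.8 and 24.7 CPM in the WT libraries 1 to 4 and 22.1, 27.6, 29.4 and 25.02 CPM in the KO libraries 1 to 4. KO 4 (25.0) lay between WT 3 (25.8) and WT 4 (24.7), and the log2 fold change was 0.35 (95% interval 0.05 to 0.65, edgeR adjusted p = 0.107). Isg20, an RNA exonuclease, was at 6.36 to 7.86 CPM in WT and 7.71 to 12.5 CPM in KO (0.41, edgeR adjusted p = 0.0582).

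**Figure D3:**
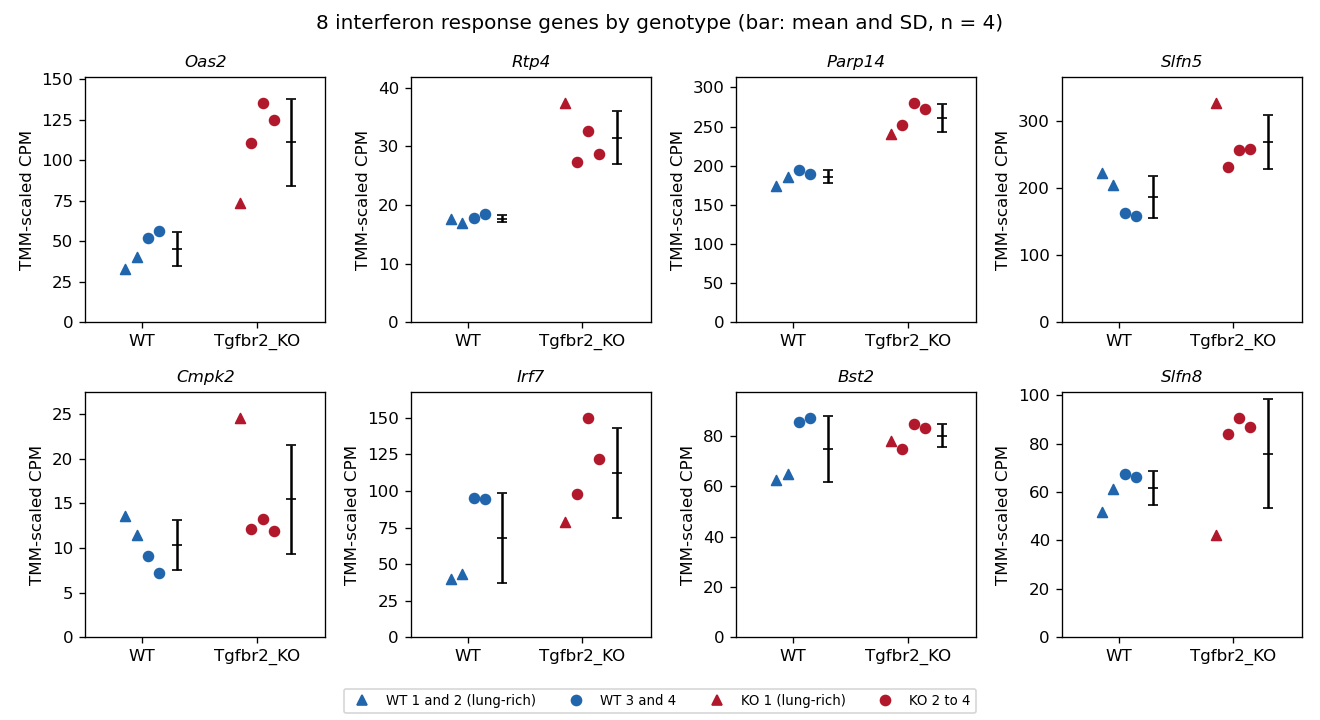
TMM-scaled CPM of 8 genes in each WT and KO library, with triangles for the lung-rich libraries and a bar for the mean and SD of 4 libraries. Rtp4, Parp14, Oas2 and Slfn5 have no overlap between genotypes, Cmpk2 and Irf7 separate within each set, Bst2 overlaps, and Slfn8 is lowest in KO 1 and highest in KO 2 to 4.

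Slfn8, Ifi44 and Bst2 had opposite directions in the sets. Slfn8, a Schlafen protein, was at 51.9, 61.4, 67.3 and 66.01 CPM in the WT libraries 1 to 4 and 42.2, 84.03, 90.3 and 86.7 CPM in the KO libraries 1 to 4. KO 2 to 4 were the highest libraries and KO 1 the lowest of all (log2 fold change 0.39 in the other set and -0.49 in the lung-rich set). Slfn8 rose in the 5 other libraries alone (edgeR adjusted p = 1.53e-06). It shares 26.8% of its words with other genes, mainly Slfn9, and lies beside Slfn5 on chromosome 11. Ifi44, a cytoplasmic protein induced by interferon, was at 5.97, 7.11, 6.15 and 6.19 CPM in the WT libraries 1 to 4 and 16.6, 3.21, 5.40 and 5.06 CPM in the KO libraries 1 to 4. Here KO 1 was the highest and KO 2 to 4 the lowest (-0.45 in the other set and 1.27 in the lung-rich set). Bst2, which encodes tetherin and holds budding virus at the cell surface, was at 62.3, 64.9, 85.5 and 86.9 CPM in the WT libraries 1 to 4 and 78.1, 74.6, 84.7 and 83.1 CPM in the KO libraries 1 to 4, and did not pass in the other set (-0.10 in the other set and 0.23 in the lung-rich set, edgeR adjusted p = 0.163 in the other set).

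A test of whether the genotype difference was unequal in the sets (edgeR interaction) passed for 9 of 34 genes. The log2 fold change of KO over WT was higher in the lung-rich set for 8 (against 8.84% of all genes). It was lower there for 1, Slfn8 (against 10.1%). The 8 were Ifi44 (interaction log2 1.79), Zbp1 (0.83), Oasl2 (0.75), Ifit1 (0.68), Isg15 (0.65), Ifit2 (0.60), Bst2 (0.39) and Irf9 (0.38), and that of Slfn8 was -0.81. All of these rest on KO 1, the only lung-rich KO library, which held 6772 CPM of epithelial markers against 4344 in WT 1 and 3790 in WT 2, and 6853 CPM of endothelial markers against 4563 and 3505. The part of lung RNA in the lung-rich differences was not tested. Epithelial markers in the 5 other libraries were at 374 to 382 CPM in WT and 244 to 318 in KO. Endothelial markers were at 457 to 460 CPM in WT 3 and WT 4 and 462 to 489 in KO 2 to 4.

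More of these genes differed between the library sets than between the genotypes. With genotype in the model, 18 of 34 were lower (52.9%, against 27.6% of all genes) and 9 higher (26.5%, against 30.9%) in the lung-rich libraries. Oasl1 had the largest negative difference (log2 -1.57, edgeR adjusted p = 1.74e-05), followed by Ifi204 (-1.13), Ifi211 (-1.12), Oas1g (-1.05) and Oas3 (-1.04). The 9 higher genes were Ifit3b (1.43), Ifi44 (0.94), Cmpk2 (0.79), Ifit3 (0.58), Ifit1 (0.45), Slfn5 (0.40), Isg20 (0.35), Xaf1 (0.26) and Ddx58 (0.17). Stat2, Rtp4, Usp18, Parp14, Irf9, Oasl2 and Ifit2 passed in neither direction. Rtp4, Stat2 and Parp14, of these, had ratios of the mean of WT 1 and 2 to that of WT 3 and 4 of 0.956, 0.980 and 0.938.

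**Figure D4:**
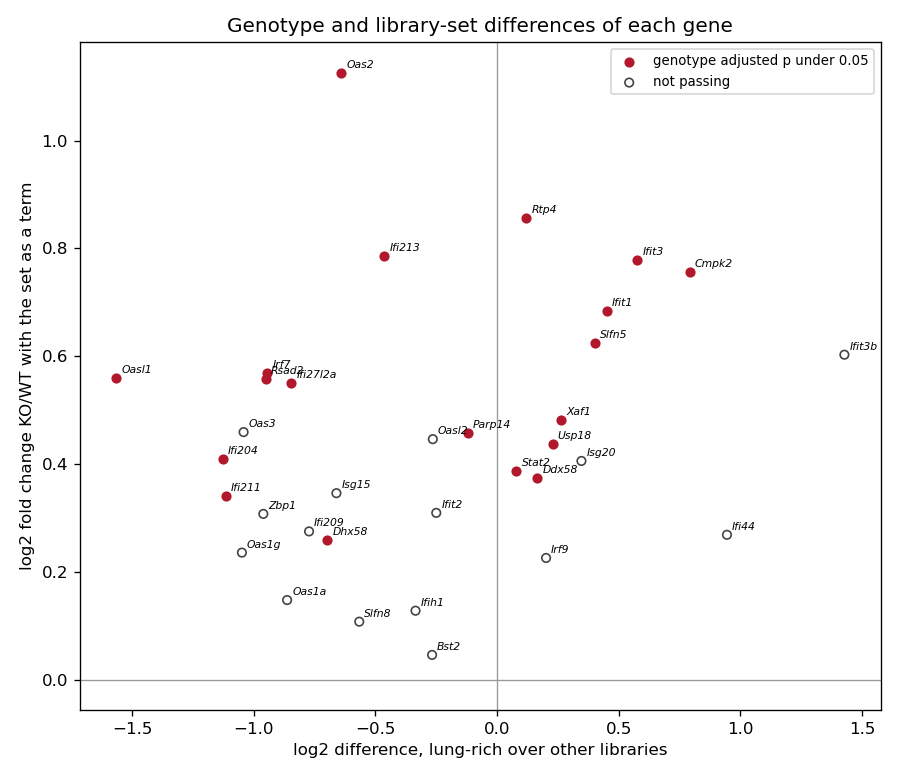
Each point is 1 of 34 genes, with the log2 difference of lung-rich over other libraries on the horizontal axis and the log2 fold change of KO over WT from the same fit on the vertical axis. All points lie above 0 on the vertical axis, 19 of them filled because the genotype difference passed, while they spread from Oasl1 at the left to Ifit3b at the right on the horizontal one.

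Per kb of annotated exon, the levels differed widely between genes. Ifi27l2a was the highest, at a mean of 135 CPM per kb in WT and 228 in KO, followed by Bst2 at 83.0 and 88.7. Ifi204, Oas1a, Slfn5, Ifi211, Isg15 and Parp14 followed at 19.99 to 30.3 CPM per kb in WT. Ifi44 was the lowest at 1.04 and 1.24 CPM per kb, with Ifit3b at 2.34 and 2.96 and Cmpk2 at 2.48 and 3.71. These lengths are unions over annotated exons, so a gene that uses a short transcript has a higher level than given. The smallest count behind any value was 50 reads, for Ifit3b, so each gene was above the floor of 3 counts in every library.

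The interferons themselves were near the limit of detection. Of 21 ligand genes Ifnb1 had the most counts, 64 over all 8 libraries, and was at 0 to 0.39 CPM in WT and 0.10 to 0.66 CPM in KO. Ifng had 8 counts in all, and Ifna1, Ifna2 and Ifna4 had 1, 1 and 0. A floor of 3 counts is 0.0797 to 0.192 CPM in these libraries and covers counting error only. None of the 21 passed the filter on low counts over all libraries. In the 5 other libraries Ifnb1 was tested and did not pass (log2 fold change 0.65, 95% interval -0.44 to 1.73, edgeR adjusted p = 0.341), so a difference was not detectable at this depth.

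Several receptor genes fell in Tgfbr2_KO with the set term. None of the 11 receptor, kinase and Stat genes passed over all libraries (edgeR and DESeq2, 2 higher and 0 lower at an unadjusted p under 0.05 by either). With the set term 5 of 11 fell, against 7.89% of all genes, and 0 rose, against 8.59% (edgeR, with 2 higher and 7 lower at an unadjusted p under 0.05), with a median log2 fold change of -0.24. Ifnar1 was at 287, 315, 439 and 432 CPM in the WT libraries 1 to 4 and 200.3, 334, 319 and 331 CPM in the KO libraries 1 to 4, below WT in both sets (-0.47, SE 0.06, edgeR adjusted p = 0.00189). Ifnar2, the other chain, had -0.21 (edgeR adjusted p = 0.0174). Ifngr1 and Ifngr2, the chains of the interferon-γ receptor, had -0.33 and -0.36 (edgeR adjusted p = 0.00358 and 0.00797), and the kinase gene Jak2 -0.25 (edgeR adjusted p = 0.0151). These 5 and Il10rb lay below WT without overlap in both sets, 6 of 11 (54.5%), against 13.6% of all genes.

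The kinases of the type I receptor did not pass with the set term, with 0.22 for Jak1 (edgeR adjusted p = 0.0723) and -0.07 for Tyk2 (edgeR adjusted p = 0.29). Stat3 had 0.33 (edgeR adjusted p = 0.0905), Il10rb -0.21 (edgeR adjusted p = 0.1) and the interferon-λ receptor gene Ifnlr1 -0.96 (edgeR adjusted p = 0.11). In the 5 other libraries alone Jak1 (0.35, edgeR adjusted p = 2.12e-08) and Stat3 (0.55, 2.39e-11) rose, against 19.7% of all genes. Ifnlr1 fell there (-1.725, edgeR adjusted p = 1.40e-05), against 18.7%, and Tyk2 and Il10rb did not pass. In the lung-rich set Jak1 had -0.07, Stat3 -0.14 and Ifnlr1 0.0091.

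Among 19 genes of sensors and adaptors that lead to interferon production, 0 passed over all libraries (edgeR and DESeq2, with 1 higher and 0 lower at an unadjusted p under 0.05 by either), and 2 rose and 3 fell with the set term. The 2 of 19 that rose (10.5%) are near the 8.59% of all genes called higher, and 7.89% of all genes were called lower. Tmem173, which encodes STING, had -0.32 (edgeR adjusted p = 0.00349), Irf8 -0.28 (0.00801) and the inflammasome adaptor gene Pycard -0.26 (0.018). Myd88, the adaptor of most Toll-like receptors, had 0.24 (0.0152) and Irf1 0.34 (0.024). Irf1 was named after its values were seen. Of 14 genes that restrain the response 0 passed over all libraries (edgeR and DESeq2, 0 higher and 1 lower at an unadjusted p under 0.05 by either) and 0 with the set term (edgeR, 0 higher and 2 lower at an unadjusted p under 0.05). The smallest p-values there were those of Cyld (-0.16, edgeR adjusted p = 0.0672), Nlrx1 (-0.32), Pias1 (0.15) and Nlrc5 (-0.25).

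Further interferon-stimulated genes outside the 34 were higher more often than lower. Of 58 tested, 17 rose with the set term (29.3%, against 8.59% of all genes) and 1 fell (against 7.89%). Their median log2 fold change was 0.26, and 22 (37.9%, against 14.8%) lay above WT without overlap in both sets. Over all libraries 0 passed with edgeR, against 0.196% of all genes higher and 0.102% lower. At an unadjusted p under 0.05 (edgeR) 18 were higher, against 838 of all 12750 genes, and 0 lower. DESeq2 called 10 higher (against 2.72% of all genes) and 0 lower (against 1.41%). Sp100, a nuclear body protein, was at 91.9, 94.6, 105 and 102 CPM in the WT libraries 1 to 4 and 120.5, 135, 140.3 and 142 CPM in the KO libraries 1 to 4 (0.41, SE 0.04, edgeR adjusted p = 8.32e-04). Ifi203 and Mndal, of the Ifi200 cluster, had 0.57 and 0.30 (edgeR adjusted p = 0.00123 and 0.00224). Ddx60, a helicase, had 0.71 (edgeR adjusted p = 0.00251). The gene that fell was Cxcl9, a chemokine induced mainly by interferon-γ, at 39.9, 43.1, 196 and 201 CPM in the WT libraries 1 to 4 and 30.02, 95.1, 66.8 and 85.7 CPM in the KO libraries 1 to 4 (-0.99, SE 0.17, edgeR adjusted p = 0.00857). Cxcl9 was named after its values were seen. Of the 58, in the 5 other libraries alone, 22 rose, against 19.7% of all genes, and 11 fell, a share close to the 18.7% of all genes.

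**Figure D5:**
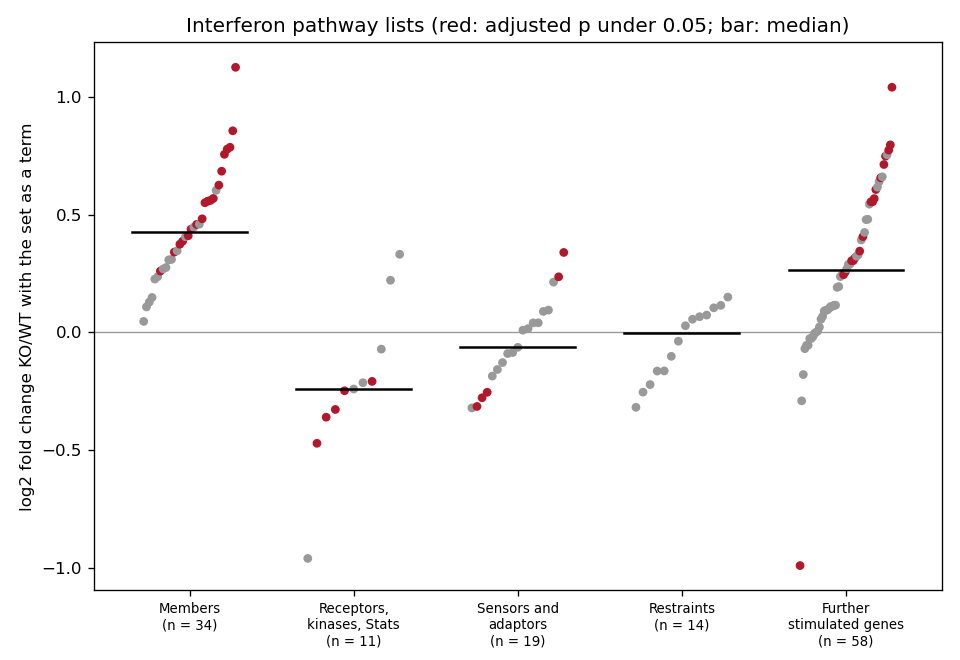
Log2 fold change of KO over WT from the fit with the library set as a term for each tested gene of 5 lists, with red for adjusted p under 0.05 and a bar at the median. The 34 members all lie above 0 with a median of 0.42, the 58 further stimulated genes have a median of 0.26, and the 11 receptor, kinase and Stat genes a median of -0.24.

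Summed levels of markers of other cell types are given for both library sets. In the 5 other libraries the summed level of 9 classical monocyte markers was 1377 to 1391 CPM in WT and 794 to 866 in KO, that of 8 non-classical monocyte markers 1035 to 1052 against 1279 to 1367, and that of 11 alveolar macrophage markers 512 to 523 against 142 to 169. The 15 lymphocyte markers summed to 54.9 to 57.8 CPM in WT and 75.6 to 98.1 CPM in KO, and the 8 conventional dendritic cell markers to 66.6 to 66.9 against 98.0 to 103. The 10 neutrophil markers summed to 215 to 221 CPM in WT against 146 to 159 in KO, the 11 platelet and erythroid markers to 216 to 228 against 535 to 572, and the 16 fibroblast and pericyte markers to 1923 to 1939 against 1377 to 2148. Chil3, Fabp4, S100a8 and S100a9 each stand in 2 of these lists. In the lung-rich set KO 1 lay above WT 1 and WT 2 for alveolar macrophage markers (206 against 149 and 167 CPM), the reverse of the other set, and below them for classical monocyte markers (489.7 against 725 and 560.4 CPM). Neutrophil markers in KO 1 (112 CPM) lay between WT 1 (119) and WT 2 (111). KO 1 was also above both WT libraries for markers of non-classical monocytes (2234 against 2065 and 1729 CPM), conventional dendritic cells (174.5 against 135 and 111), lymphocytes (106 against 71.8 and 75.5), platelets and erythroid cells (829.5 against 535 and 433.5) and fibroblasts and pericytes (2478 against 1930.0 and 2301). Plasmacytoid dendritic cells, the main producers of interferon-α, have 10 markers in the list used, of which Bst2 is also one of the 34 genes. The 10 summed to 380 to 393 CPM in WT and 382.5 to 388 CPM in KO in the 5 other libraries, and to 390.2 and 368 CPM in WT 1 and WT 2 and 409 CPM in KO 1, and most of that came from Irf8, Tcf4 and Bst2. In the 5 other libraries Irf8 was at 178 to 189 CPM in WT and 143 to 154 in KO. Tcf4 was at 108 to 112 CPM in WT there and 135 to 141 in KO. KO 1 also lay below WT 1 and WT 2 for Irf8 and above them for Tcf4. Siglech was at 7.45, 7.25, 2.56 and 2.25 CPM in the WT libraries 1 to 4 and 5.06, 8.71, 10.2 and 9.51 CPM in the KO libraries 1 to 4. Cd209d was at 0.15 to 0.48 CPM in WT and 1.65 to 3.19 in KO. Over all 8 libraries Spib was at 1.64 to 7.27 CPM, Cox6a2 at 1.21 to 3.24 and Ly6d at 0.25 to 4.43. Ccr9 was at 0.12 to 0.56 CPM and Klk1 at 0 to 0.22 CPM. The part of these cells in the differences of the interferon response genes was not tested.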

How the data were processed

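Poly(A) RNA of 4 WT and 4 Tgfbr2_KO libraries was sequenced. Per the labels' protocols, stranded mRNA libraries were sequenced. The deposited table is named as merged salmon output, and the submitters' processing notes name GRCm38 and DESeq2 1.40.1. The deposited values are salmon's estimated counts per gene, 81.8 to 84.8% of them whole (within 1e-09), with 15597310 to 37654133 counts per library. No source used here gives the strand setting, so reads of overlapping antisense genes cannot be told apart.

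Here the counts were rounded, filtered with filterByExpr (minimum count 10, minimum total 15, leaving 12750 of 22597 genes), scaled by TMM and tested with the edgeR 4.0.16 quasi-likelihood test (R 4.3.3, limma 3.58.1) with Benjamini-Hochberg adjustment over all tested genes and a threshold of 0.05. Genotype alone was the main design. Library set as a term, the 5 other libraries alone, the interaction, RLE and upper-quartile scaling, other filters, DESeq2 1.42.0, unrounded counts, a replicate block and each library left out were alternatives. CPM are TMM-scaled, and SEs use the posterior dispersion. Scripts were tested on simulated data. The members, lists and library sets were chosen with earlier results of these data known. All members were to be named, with values in every library for those that passed over all libraries or with the set term and for up to 3 with opposite directions in the sets, and of the other lists up to 4 genes with the smallest p, receptors and kinases all, except that 1 gene of that list is not reported here. Exon lengths, positions and shared 31-base words come from GENCODE M21 and promoters from RefSeq GRCm38.p6.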

Additional observations from a re-analysis of the deposited data

Results flagged for a closer look

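Each gene was checked in each genotype for a library far from the other 3, by a ratio of gap to range above Dixon's 95% critical value, and 6 of 68 groups met this. Chance gives about 1 in 20. KO 1 was the far library in 4 of the 6. It was the highest KO library for Ifi44 (16.6 CPM), Cmpk2 (24.5 CPM) and Ddx58 (71.2 CPM) and the lowest for Slfn8 (42.2 CPM). No other KO library is lung-rich, and the part of lung RNA in these values was not tested. In WT, Isg20 was lowest in WT 3 (6.36 CPM) and Irf9 was highest in WT 2 (58.7 CPM).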

How the results depend on the processing

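Over all libraries 25 genes were higher and 13 lower, among them 1 member higher and 0 lower. These counts were 1095, 1006 and 19 (genes higher, genes lower, members higher) with the library set as a term, 2493, 2363 and 20 in the 5 other libraries, 51, 24 and 2 with a minimum count of 30, 347, 180 and 7 with DESeq2, and 70, 115 and 4 when counts of WT 3 and WT 4 were added and KO 4 was dropped. With a replicate block they were 0, 0 and 0. There 24 members were higher at an unadjusted p under 0.05 (edgeR), against 886 of all 12750 genes. Deviations from the genotype means correlated at 0.867, -0.794, 0.694 and 0.753 between same-numbered libraries 1 to 4. Only WT 2 and KO 2, the negative pair, came from different library sets. The check therefore cannot tell whether the numbers pair the samples. Leaving out 1 library gave 0 to 619 genes higher, 0 to 241 lower and 0 to 6 members higher, the top of each range without KO 1 and 0 without any other single library. RLE scaling, upper-quartile scaling, no filter and unrounded counts reversed no member and left each on its side of the threshold. Of 646 member values under all alternatives, 639 kept their sign. The exceptions were Ifi44 at -0.45 in the 5 other libraries, -0.048 with the replicate block and -0.48 without KO 1 (up to 0.47 without another library), Ifit3b at -0.31 without KO 1 (up to 0.61 without another), Bst2 at -0.10 in the 5 other libraries, and Slfn8 at -0.49 in WT 1, WT 2 and KO 1 and -0.040 with WT 3 and WT 4 added. The cause was not tested. Depth did not limit the members, the lowest having 50 counts, but did limit the interferon genes.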
